A study of Mus musculus with 6 samples.

Results

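The BMP and TGF-beta pathway was described here through 48 genes, taken by symbol from the 26214 features counted in colon tumours of mice. They are 14 ligands and related secreted proteins, 11 receptors, 7 antagonists, 8 Smads, 4 Id genes and 4 latent TGF-beta binding proteins. All 48 were present in the files, and all 48 passed the filter on low counts. The tumours were induced with AOM (azoxymethane, a carcinogen) and DSS (dextran sulfate sodium, which injures the colon epithelium), a treatment that all 6 samples share. Tissue of 3 Trim21 -/- samples, called knockout here, was compared with tissue of 3 Trim21 +/+ samples, called wild type. Trim21 encodes a ubiquitin ligase that also binds antibody inside cells. The labels give no age, sex or strain, do not describe the deleted allele, and leave unsaid whether tumours of several mice were pooled. The p-values therefore speak only for the spread among the 6 samples.

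Ligands of the TGF-beta superfamily bind pairs of type I and type II receptor kinases, which phosphorylate Smad proteins. BMP receptors act mainly through Smad1, Smad5 and Smad9, and TGF-beta and activin receptors through Smad2 and Smad3, each with Smad4 as the shared partner. In the colon, BMP ligands made largely by mesenchymal cells favour differentiation of epithelial cells, antagonists such as Gremlin 1 and Noggin guard the crypt base, and TGF-beta restrains epithelial growth while it drives matrix deposition by fibroblasts. Loss of the receptor or Smad genes of this pathway is a known step in human colorectal cancer.

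Levels are given as CPM, the reads of a gene per 1000000 reads of the library after TMM scaling. Trim21 itself measured 12.1, 18.9 and 12.8 CPM in knockout replicates 1 to 3 and 29.7, 20.3 and 19.5 CPM in wild-type replicates 1 to 3, so every knockout value lay below every wild-type value. Its log2 fold change was -0.67 ± 0.24 (SE; edgeR adjusted p = 0.418), and the reads that remain are not located to exons by counts per gene. Total counts ranged from 17937821 to 19987295 in the knockout libraries and from 27085599 to 29742757 in the wild-type libraries. Summed over 10 epithelial markers, the 6 libraries lay between 7171 and 8598 CPM. Single markers differed in how steady they were. Epcam measured between 1295 and 1484 CPM, Cdx1 between 36.0 and 130 CPM, and Cdx2 between 4.69 and 29.4 CPM, the last 2 lowest in wild-type replicate 1. Wild-type replicate 3 stood apart: 13 skeletal muscle genes, chosen after their values were seen, summed to 3432 CPM there and to between 6.61 and 20.1 CPM in the other 5 libraries. Values without this library are given below for the genes it moved most.

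No member of the pathway passed the test. With edgeR's quasi-likelihood test, 0 of the 48 genes, and 0% of the 16281 genes tested, had an adjusted p under 0.05, and limma-voom also called 0 members. At an unadjusted p under 0.05 there were 6 members (12.5%), all higher in the knockout, where 10.7% of all tested genes reached that level, 6.63% higher and 4.12% lower. They were Bmp3, Bmp5, Acvr1b, Chrdl1, Id4 and Ltbp1. The groups did not overlap for 10 members (20.8%), 7 higher and 3 lower in the knockout, against a background of 17.9% of all tested genes, 9.43% higher and 8.47% lower. Both shares lie near the background. Without wild-type replicate 3, 5 members (10.4%) reached an unadjusted p under 0.05, beside 10.9% of all tested genes, and 15 members (31.2%) did not overlap, beside 30.3%. The median log2 fold change of the 48 genes was 0.093, with 28 above 0, and over all tested genes it was -0.013. The members' median was 0.020 without wild-type replicate 3 and 0.027 without knockout replicate 3. DESeq2 called 2 members, Bmp3 and Chrdl1, where it called 2.06% of the 16308 genes it gave an adjusted p. Exons of Bmp4, Bmp5, Bmp6, Bmp8b, Tgfb2, Tgfb3, Bmpr1a, Acvr2a, Acvrl1, Chrd, Fst, Id4, Ltbp2 and Ltbp3 overlap a gene on the opposite strand, and those of Tgfbr3 and Smad5 a gene on the same strand, so their counts may be shared with a neighbour.

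**Figure D1:**
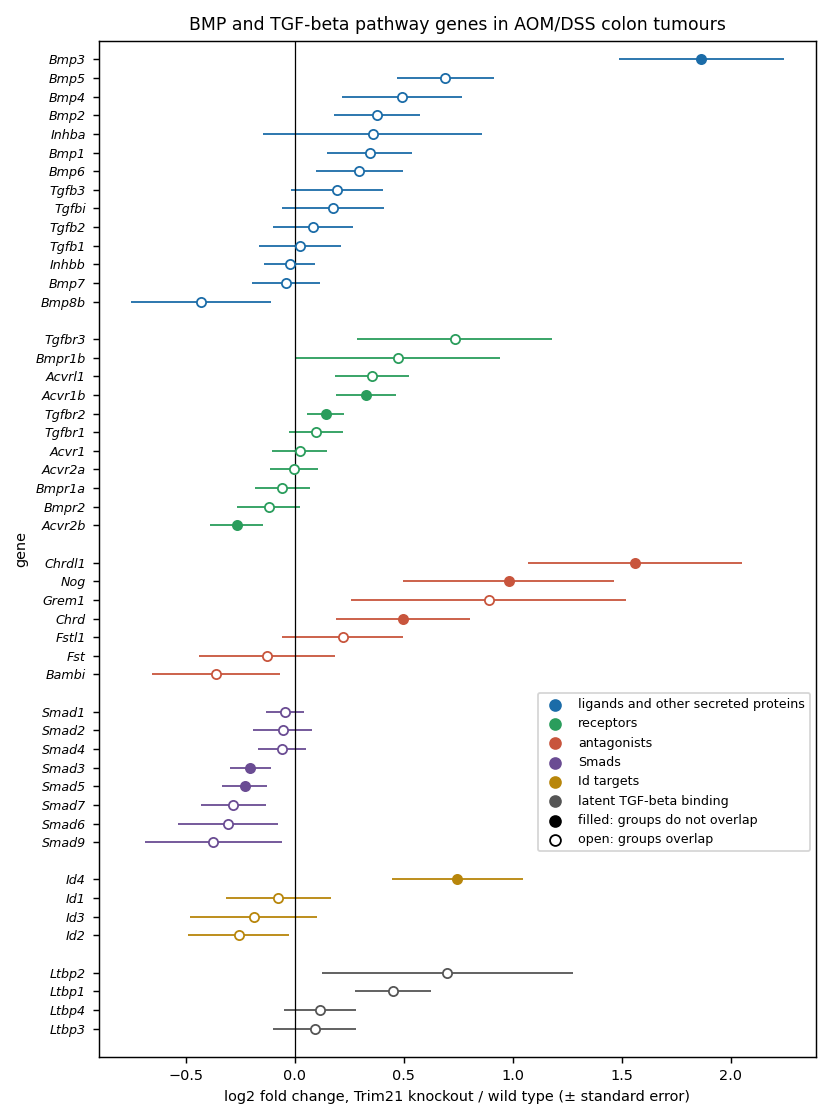
The log2 fold change of each of the 48 genes, knockout over wild type, with its standard error, in blocks by role; filled points mark genes whose 3 knockout values all lie on one side of the 3 wild-type values. Bmp3 at 1.86 and Chrdl1 at 1.56 lie farthest to the right, and all 8 Smads lie left of 0.

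Among the ligands, Bmp3 had the largest difference. BMP3 is an atypical member that opposes BMP and activin signalling. The gene (chromosome 5, 98854415 to 98884396, plus strand, mm10) measured 21.5, 22.4 and 38.9 CPM in knockout replicates 1 to 3 and 4.76, 11.5 and 6.48 CPM in wild-type replicates 1 to 3. The lowest knockout value was therefore above the highest wild-type value. The mean was 27.6 ± 9.77 CPM over the knockout libraries and 7.57 ± 3.48 CPM over the wild-type libraries (SD, n = 3), a fitted 3.64-fold difference. The log2 fold change was 1.86 ± 0.38 (SE), which did not pass edgeR's test (unadjusted p = 0.00156, adjusted p = 0.322) and passed DESeq2 (adjusted p = 0.000141). With each library left out in turn it stayed between 1.53 and 2.29, and it was 1.76 without wild-type replicate 3.

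Bmp5, a BMP ligand of the gut mesenchyme (chromosome 9, 75775364 to 75900310, plus strand), measured 75.8, 119.7 and 119 CPM in knockout replicates 1 to 3 and 81.6, 59.5 and 53.9 CPM in wild-type replicates 1 to 3. Knockout replicate 1 lay below wild-type replicate 1, so the groups overlapped. The log2 fold change was 0.69 ± 0.22 (SE; edgeR adjusted p = 0.389), and without wild-type replicate 3 it was 0.57. Bmp2, a ligand that mature colonic epithelium also makes, measured 54.4, 72.8 and 91.7 CPM in the knockout libraries and 64.6, 50.1 and 53.8 CPM in the wild-type libraries, with a log2 fold change of 0.38 ± 0.20 (SE; edgeR adjusted p = 0.527). Bmp4, the main mesenchymal BMP of the gut, measured 35.3, 60.9 and 64.7 CPM in the knockout libraries and 45.6, 41.6 and 27.2 CPM in the wild-type libraries. Its groups overlapped as well, with knockout replicate 1 under the wild-type replicates 1 and 2, and its log2 fold change was 0.49 ± 0.27 (SE; edgeR adjusted p = 0.541), or 0.30 without wild-type replicate 3. For Bmp1, a protease that cleaves procollagens and Chordin, and for Bmp2, Bmp4 and Bmp5, knockout replicates 2 and 3 were the 2 highest of the 6 libraries.

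The remaining BMP ligands had values that overlapped between the groups. The log2 fold change was 0.30 for Bmp6, -0.041 for Bmp7 and -0.43 for Bmp8b, with standard errors of 0.20, 0.16 and 0.32. On the log2 scale Bmp8b differed by -0.22 without wild-type replicate 3. Inhba, which encodes the subunit of activin A, varied most among the ligands, at 64.2, 150.0 and 254 CPM in the knockout libraries and 179, 114 and 72.9 CPM in the wild-type libraries. Its lowest and highest values both came from the knockout, and its log2 fold change went from 0.36 ± 0.50 (SE) to -0.18 without knockout replicate 3 and to 0.091 without wild-type replicate 3. Inhbb, the subunit of activin B, had steady values from 28.5 to 34.9 CPM over the 6 libraries. The TGF-beta ligands Tgfb1, Tgfb2 and Tgfb3 had log2 fold changes of 0.023, 0.081 and 0.19, each smaller than its standard error of 0.19, 0.18 or 0.21. Tgfbi, a matrix protein induced by TGF-beta, measured 103, 149 and 156 CPM in the knockout libraries and 158, 113 and 90.7 CPM in the wild-type libraries, and its groups overlapped. Its log2 fold change was 0.18 ± 0.23 (SE; edgeR adjusted p = 0.796) and 0.0067 without wild-type replicate 3.

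**Figure D2:**
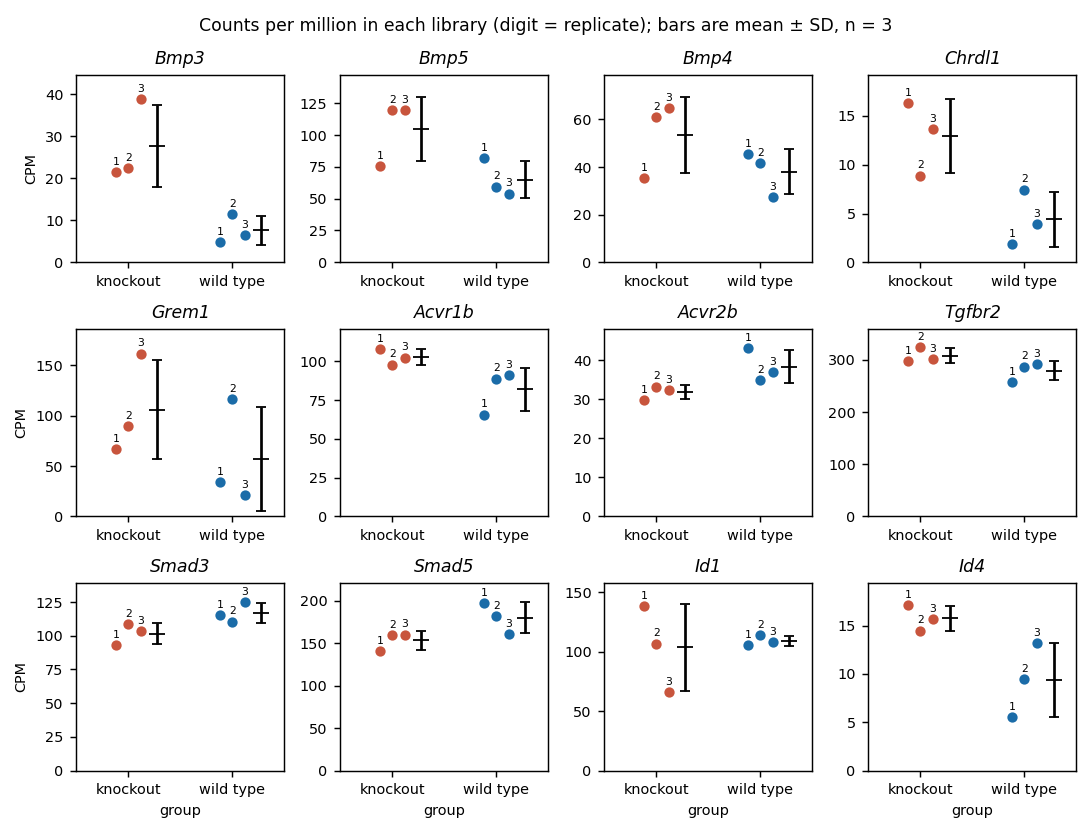
CPM of 12 pathway genes in each of the 6 libraries, with the replicate number beside each point and the mean ± SD of each group (n = 3); every vertical axis starts at 0. The groups are apart for Bmp3, Chrdl1, Acvr1b, Acvr2b, Tgfbr2, Smad3, Smad5 and Id4, and overlap for Bmp5, Bmp4, Grem1 and Id1.

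No receptor gene passed the test. Among the type I receptors, Acvr1b, which encodes the activin receptor ALK4 (chromosome 15, 101174067 to 101213684, plus strand), measured 108, 97.9 and 102 CPM in knockout replicates 1 to 3 and 65.7, 88.9 and 91.0 CPM in wild-type replicates 1 to 3. Every knockout value was above every wild-type value, with wild-type replicate 1 the lowest, and the log2 fold change was 0.33 ± 0.14 (SE; edgeR adjusted p = 0.461). Without wild-type replicate 1 it was 0.19, with an unadjusted p of 0.0821 in edgeR. Acvrl1, a receptor known chiefly from endothelium, measured 22.9, 27.2 and 25.0 CPM in the knockout libraries and 16.1, 23.7 and 19.0 CPM in the wild-type libraries and differed by 0.35 ± 0.17 (SE; edgeR adjusted p = 0.502) on the log2 scale. Tgfbr1, the TGF-beta type I receptor, had 0.096, the BMP receptors Bmpr1a and Acvr1 had -0.058 and 0.022, and Bmpr1b had 0.47 at a level of at most 2.91 CPM. The standard errors were 0.12, 0.13, 0.13 and 0.47. The log2 fold change of Bmpr1b was 0.83 without wild-type replicate 3.

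Among the type II receptors, Acvr2b, an activin receptor (chromosome 9, 119402118 to 119434995, plus strand), was the one with lower values in every knockout library, at 29.9, 33.2 and 32.3 CPM in the knockout libraries and 43.1, 34.9 and 37.0 CPM in the wild-type libraries. Its log2 fold change was -0.27 ± 0.12 (SE; edgeR adjusted p = 0.479). Tgfbr2, the TGF-beta type II receptor, a gene often mutated in human colorectal cancer with mismatch repair defects, measured 298, 324 and 302 CPM in the knockout libraries and 258, 287 and 293 CPM in the wild-type libraries. These values did not overlap, but the distance between the highest wild-type and the lowest knockout value was small, and the log2 fold change was 0.14 ± 0.085 (SE; edgeR adjusted p = 0.569). Bmpr2, the BMP type II receptor, measured 164, 209 and 221 CPM in the knockout libraries and 242, 217 and 186 CPM in the wild-type libraries, with a log2 fold change of -0.12 ± 0.14 (SE; edgeR adjusted p = 0.776). For Acvr2a, which binds activins, the log2 fold change was -0.0048 ± 0.11 (SE). Tgfbr3, the co-receptor betaglycan, measured 29.4, 22.3 and 27.3 CPM in the knockout libraries and 5.70, 19.5 and 22.4 CPM in the wild-type libraries. Its wild-type replicate 1 was far below the other 5 libraries, and without it the log2 fold change went from 0.73 ± 0.45 (SE) to 0.33. Without wild-type replicate 3 it was 1.06.

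Antagonists included the second largest difference. Chrdl1 (chordin-like 1, a secreted BMP antagonist, chromosome X, 143285674 to 143394262, minus strand) measured 16.4, 8.89 and 13.6 CPM in knockout replicates 1 to 3 and 1.84, 7.44 and 3.89 CPM in wild-type replicates 1 to 3. Every knockout value was above every wild-type value, and wild-type replicate 1 was the lowest. The mean was 13.0 ± 3.78 CPM over the knockout libraries and 4.39 ± 2.83 CPM over the wild-type libraries (SD, n = 3), and the log2 fold change was 1.56 ± 0.49 (SE; edgeR unadjusted p = 0.0148, adjusted p = 0.379; DESeq2 adjusted p = 0.0444). It was 1.19 without wild-type replicate 1, 2.18 without wild-type replicate 2 and 1.48 without wild-type replicate 3.

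Nog, which encodes Noggin, and Chrd, which encodes Chordin, also had groups that did not overlap, both at low levels. Nog measured 0.545, 0.713 and 0.465 CPM in the knockout libraries and 0.268, 0.372 and 0.222 CPM in the wild-type libraries, from 11, 13 and 9 and 8, 11 and 6 reads. Chrd measured 4.46, 4.17 and 4.70 CPM in the knockout libraries and 2.01, 3.99 and 3.44 CPM in the wild-type libraries. Their log2 fold changes were 0.98 ± 0.48 (SE; edgeR adjusted p = 0.506) and 0.50 ± 0.31 (SE; edgeR adjusted p = 0.579). For Nog it was 0.83 without wild-type replicate 3. Grem1, which encodes Gremlin 1 (chromosome 2, 113746164 to 113758646, minus strand), measured 66.8, 89.9 and 162 CPM in knockout replicates 1 to 3 and 34.1, 117 and 21.2 CPM in wild-type replicates 1 to 3. The value in wild-type replicate 2 was higher than knockout replicates 1 and 2, so the groups overlapped, and the spread within the wild type was 5.51-fold from lowest to highest. The log2 fold change of Grem1 was 0.89 ± 0.63 (SE; edgeR adjusted p = 0.624). Without wild-type replicate 2 it was 1.94 (edgeR adjusted p = 0.225, lowest of a range up to 0.885 over its alternatives), and without wild-type replicate 3 it was 0.49. Fstl1, a secreted follistatin-like protein of mesenchymal cells, measured 102, 143 and 178 CPM in the knockout libraries and 159, 123 and 81.5 CPM in the wild-type libraries, with no separation of the groups and a log2 fold change of 0.22 ± 0.28 (SE; edgeR adjusted p = 0.784), or -0.00084 without wild-type replicate 3. Fst, which encodes the activin antagonist follistatin, and Bambi, a pseudoreceptor that dampens signalling, had log2 fold changes of -0.13 and -0.36, with standard errors of 0.31 and 0.29.

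All 8 Smad genes had a negative log2 fold change under each scaling, filter and test run, where 47.9% of all tested genes had a positive one. The sizes were small, with a median of -0.22, and none had an unadjusted p under 0.05. With knockout replicate 1, wild-type replicate 1 or wild-type replicate 2 left out, 7 of the 8 were negative. Smad5, a Smad of the BMP branch (chromosome 13, 56703010 to 56742377, plus strand), measured 141, 159 and 160.3 CPM in the knockout libraries and 197, 182 and 161 CPM in the wild-type libraries. Smad3, a Smad of the TGF-beta branch (chromosome 9, 63646767 to 63757994, minus strand), measured 92.96, 109 and 103 CPM in the knockout libraries and 115, 111 and 125 CPM in the wild-type libraries. In both genes every knockout value lay below every wild-type value, in Smad5 by a small distance. Their log2 fold changes were -0.23 ± 0.10 (SE; edgeR adjusted p = 0.485) and -0.20 ± 0.096 (SE; edgeR adjusted p = 0.497). Without wild-type replicate 3, Smad5 had -0.31 and Smad3 -0.16.

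The inhibitory Smad7, which blocks type I receptors, measured 57.5, 66.3 and 44.8 CPM in the knockout libraries and 72.2, 66.5 and 66.3 CPM in the wild-type libraries, with a log2 fold change of -0.28 ± 0.15 (SE; edgeR adjusted p = 0.528). Knockout replicate 2 lay within the wild-type range, so the groups overlapped. Smad4, the shared partner and a tumour suppressor, measured 238, 239 and 227 CPM in the knockout libraries and 221, 281 and 229.9 CPM in the wild-type libraries and differed by -0.059 ± 0.11 (SE; edgeR adjusted p = 0.864) on the log2 scale. The other 4, Smad1, Smad2, Smad6 and Smad9, had log2 fold changes of -0.046, -0.057, -0.31 and -0.37, with standard errors of 0.086, 0.13, 0.23 and 0.31. Smad1 and Smad4 had narrow spreads in the knockout, at 74.2 ± 2.81 and 234 ± 6.61 CPM (SD, n = 3). Their wild-type means were 76.6 ± 2.89 and 244 ± 32.7 CPM (SD, n = 3), with a wider spread for Smad4.

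Id genes encode inhibitors of bHLH transcription factors and are direct targets of BMP Smads. The sequence before the start of Id4 is shown because Id4 was the only one of the 4 whose groups did not overlap. It was taken from RefSeq on GRCm38.p6, the assembly mm10 denotes, runs 5' to 3', and ends before any exon of the GENCODE M21 annotation. Capitals mark GGCGCC, a palindromic GC-rich element that BMP Smads can bind.
Id4, chr13:48260866-48261115, plus strand: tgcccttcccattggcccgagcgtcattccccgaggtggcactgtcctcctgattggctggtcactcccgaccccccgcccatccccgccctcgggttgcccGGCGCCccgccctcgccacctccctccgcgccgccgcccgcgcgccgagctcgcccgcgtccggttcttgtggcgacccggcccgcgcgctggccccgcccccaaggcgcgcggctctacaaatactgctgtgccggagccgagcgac
The element begins 148 bases before the RefSeq start of Id4. The RefSeq window of Id3 held 0 copies of GGCGCC and that of Id2 held 1, in a stretch that GENCODE places inside the Id2 gene, and Id1 was not matched. In the 250 bases before each start, read on both strands, GGCGCC occurred in 12 of the 41 promoters listed for 33 of the members (29.3%) and in 9.59% of all 32851 promoters in the table. GTCT on either strand, the short Smad-binding motif, occurred in 85.4% of these member promoters and 82.9% of all, and GTCTAGAC, which contains it, in 0% and 0.167%. The Id4 sequence shown held 0 copies of GTCT on either strand. Base composition was not matched in these shares, and its part in them was not tested.

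Id1, the most abundant of the 4, measured 138, 107 and 65.7 CPM in knockout replicates 1 to 3 and 106, 114 and 108 CPM in wild-type replicates 1 to 3. The wild-type values lay close together while the knockout values spread 2.10-fold, so the wild-type range fell inside the knockout range. Id3 measured 65.5, 62.4 and 31.3 CPM in the knockout libraries and 75.4, 49.2 and 56.8 CPM in the wild-type libraries, and Id2 measured 74.5, 79.4 and 71.8 CPM in the knockout libraries and 128, 70.5 and 71.8 CPM in the wild-type libraries. Knockout replicate 3 had the lowest Id1 and Id3, and wild-type replicate 1 had the highest Id2 and Id3. The log2 fold changes of Id1, Id2 and Id3 were -0.077, -0.26 and -0.19, with standard errors of 0.24, 0.23 and 0.29. Without knockout replicate 3, Id1 had 0.16 and Id3 0.079, and without wild-type replicate 1, Id2 had 0.080. Id4 (chromosome 13, 48261228 to 48266026, plus strand) measured 17.1, 14.5 and 15.7 CPM in the knockout libraries and 5.56, 9.44 and 13.2 CPM in the wild-type libraries. Every knockout value of Id4 was above every wild-type value, with wild-type replicate 1 the lowest. Its log2 fold change was 0.75 ± 0.30 (SE; edgeR adjusted p = 0.447), 0.48 without wild-type replicate 1 and 1.07 without wild-type replicate 3. Exons of 2 genes on the opposite strand overlap Id4, and the handling of strand is not given in the sources used here, so its reads may be shared with them.

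Some of the latent TGF-beta binding proteins, though not every member of the family, tether inactive TGF-beta to the matrix. All 4 genes of the family had a positive log2 fold change with all libraries included, and none had groups that separated. Ltbp1 (chromosome 17, 75005568 to 75392512, plus strand) measured 40.2, 59.1 and 49.0 CPM in the knockout libraries and 32.5, 42.6 and 33.4 CPM in the wild-type libraries, with a log2 fold change of 0.45 ± 0.18 (SE; edgeR adjusted p = 0.437), or 0.39 without wild-type replicate 3. Ltbp2, a family member known for its place in elastic fibres, measured 4.96, 14.8 and 31.8 CPM in the knockout libraries and 9.85, 8.73 and 13.1 CPM in the wild-type libraries, a 6.42-fold spread within the knockout. Its log2 fold change went from 0.70 ± 0.58 (SE) to -0.10 without knockout replicate 3 and to 0.88 without wild-type replicate 3. Ltbp3 measured 18.5, 19.5 and 19.6 CPM in the knockout libraries and 23.0, 14.5 and 16.6 CPM in the wild-type libraries, and Ltbp4 measured 48.02, 58.0 and 52.4 CPM in the knockout libraries and 46.9, 39.7 and 59.8 CPM in the wild-type libraries. Both overlapped between the groups, with log2 fold changes of 0.090 ± 0.19 (SE; edgeR adjusted p = 0.878) and 0.12 ± 0.17 (SE; edgeR adjusted p = 0.814). For Ltbp4 it was 0.29 without wild-type replicate 3.

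**Figure D3:**
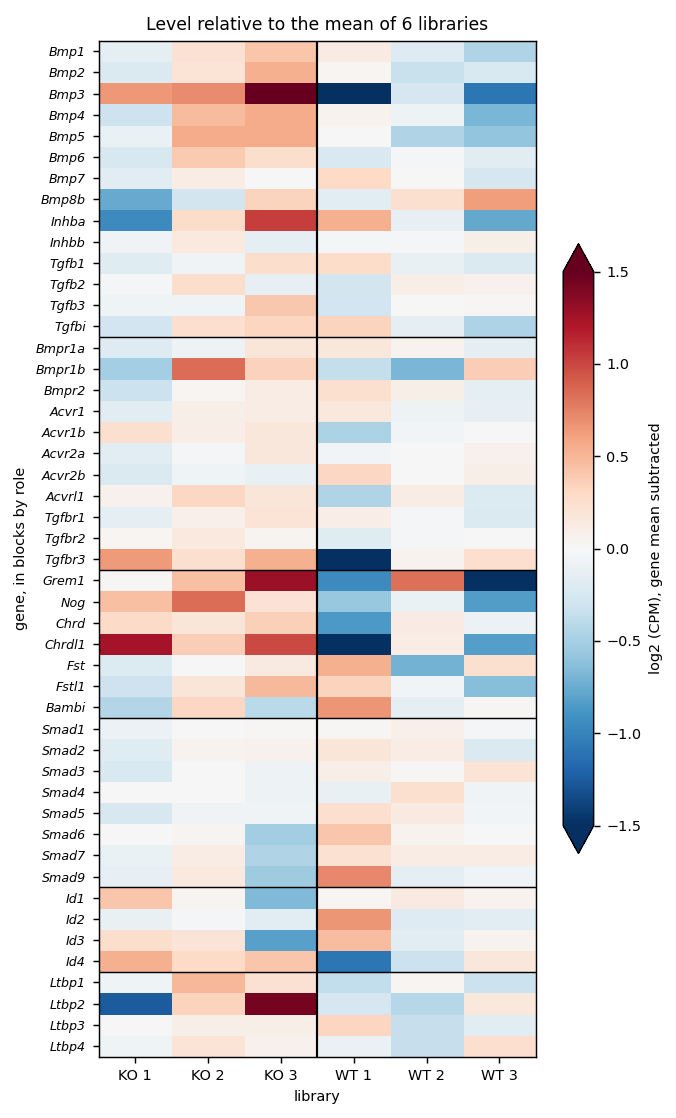
Level of each of the 48 genes in each library as log2 CPM with the gene's mean over the 6 libraries subtracted, knockout (KO) left and wild type (WT) right of the line, in blocks by role; colours beyond 1.5 on either side are drawn at the limit. Most rows are pale, and Bmp3 divides at the line. Chrdl1 is higher in every knockout library but, like Inhba, Grem1 and Ltbp2, varies within a group.

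Wild-type replicate 1 held the highest value for 16 of the 48 genes (33.3%) and the lowest for 12 (25%), beside 26.3% and 24.6% of all tested genes. Knockout replicate 1 held the lowest value for 13 genes (27.1%), beside 19.7% of all, and knockout replicate 2 for 0, beside 8.71% of all. Wild-type replicate 3 held the lowest value for 11 genes (22.9%), beside 13.7% of all, and the highest for 3 (6.25%), beside 16.1% of all. No test was made of these shares. The 12 genes lowest in wild-type replicate 1 were Bmp3, Chrdl1, Chrd, Tgfbr3, Acvr1b, Tgfbr2, Acvrl1, Id4, Smad4, Tgfb2, Tgfb3 and Ltbp1.

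Set per kilobase of exon, the order of levels was led by Id1, at 94.1 ± 3.71 CPM per kilobase in the wild type (SD, n = 3), and Smad4, at 65.7 ± 8.82. Id2, Tgfbr2, Id3, Tgfbi and Bmpr1a followed at 36.9 ± 13.4, 34.1 ± 2.26, 33.8 ± 7.52, 32.0 ± 9.05 and 30.6 ± 3.20 CPM per kilobase, which are neighbours within their spreads. Nog was last at 0.170 ± 0.0453, preceded by Bmpr1b at 0.246 ± 0.0961. In the knockout the first and last places were held by the same genes, with Id1 at 89.2 ± 31.3 and Nog at 0.339 ± 0.0747 CPM per kilobase. Bmp3 stood at place 44 in the wild type and 34 in the knockout, and Grem1 at 19 and 10. Exon lengths come from GENCODE M21, since the annotation behind the counts is not given in the sources used here.

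Of 79 further genes of the pathway, 55 passed the filter on low counts and 0 passed the test. At an unadjusted p under 0.05 there were 8 (14.5%), 6 higher and 2 lower in the knockout, beside 10.7% of all tested genes. The smallest p belonged to Furin, the protease that matures TGF-beta and BMP precursors, with 98.6, 99.9 and 84.9 CPM in the knockout libraries and 118, 116 and 129 CPM in the wild-type libraries. Its knockout values were all lower, with a log2 fold change of -0.36 ± 0.098 (SE; edgeR adjusted p = 0.345). Trim33, a ubiquitin ligase that acts on Smad4, was likewise lower, at 103, 110.1 and 117 CPM in the knockout libraries and 139.8, 130.3 and 124 CPM in the wild-type libraries, a log2 fold change of -0.25 ± 0.090 (SE; edgeR adjusted p = 0.413).

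Tgfb1i1, the TGF-beta-induced adaptor Hic-5, measured 17.0, 19.0 and 18.5 CPM in the knockout libraries and 10.3, 13.7 and 13.2 CPM in the wild-type libraries, with knockout values all higher and a log2 fold change of 0.55 ± 0.16 (SE; edgeR adjusted p = 0.352). Htra3, a secreted protease, and Acvr1c, the receptor ALK7, had log2 fold changes of 0.61 ± 0.23 (SE; edgeR adjusted p = 0.418) and 1.00 ± 0.39 (SE; edgeR adjusted p = 0.437), and Nedd4l, a ubiquitin ligase that acts on Smad2 and Smad3, had 0.26 ± 0.10 (SE; edgeR adjusted p = 0.437). For these 3 genes every knockout value was above every wild-type value. Ccn2, a standard TGF-beta readout, measured 55.4, 93.6 and 145 CPM in the knockout libraries and 63.1, 79.1 and 45.0 CPM in the wild-type libraries. Its groups overlapped, with knockout replicate 3 the highest and wild-type replicate 3 the lowest, and its log2 fold change was 0.65 ± 0.35 (SE; edgeR adjusted p = 0.531). With each library left out in turn it lay between 0.26 and 0.94. Of the 9 genes listed as induced by TGF-beta, Ccn2 and Tgfb1i1 among them, 5 had a positive log2 fold change and 4 a negative one. Their median was 0.015. The endothelial co-receptor gene Eng, with 27.4, 41.6 and 40.2 CPM in the knockout libraries and 29.9, 30.2 and 34.0 CPM in the wild-type libraries, differed by 0.21 ± 0.17 (SE; edgeR adjusted p = 0.669) on the log2 scale, and its groups overlapped.

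Several marker lists of the cell types in these samples were apart between the groups as well. The summed level of 10 smooth muscle genes was 1384, 831 and 975 CPM in knockout replicates 1 to 3 and 257, 774 and 538 CPM in wild-type replicates 1 to 3, with no overlap. That of 10 fibroblast genes was 1710.1, 2328 and 2252 CPM in knockout replicates 1 to 3 and 1640.2, 1664 and 1194 CPM in wild-type replicates 1 to 3, again higher in every knockout library. The mature colonocyte list of 8 genes summed to 929, 872 and 1101 CPM in knockout replicates 1 to 3 and 471, 659.6 and 778 CPM in wild-type replicates 1 to 3, also without overlap. Groups did not overlap for 6 smooth muscle, 3 fibroblast and 4 mature colonocyte genes, beside 17.9% of all tested genes. Fbln1 alone of the fibroblast list had a negative log2 fold change, -0.17, with a list median of 0.46. Of the mature colonocyte list, Krt20 alone did, at -0.052, with a list median of 1.13. Krt20 measured 340 to 447 CPM over the 6 libraries. Wild-type replicate 1 was lowest for 12 members, Bmp3, Chrdl1, Tgfbr3, Acvr1b and Id4 among them, and highest for 16. This library was lowest in the epithelial, mature colonocyte, smooth muscle, endothelial, macrophage, B and plasma cell, and enteric neuron and glia lists. Wild-type replicate 3 was lowest for 11 members, Bmp4, Bmp5, Grem1 and Fstl1 among them, and highest for 3. It was lowest in the fibroblast and neutrophil lists and in the subepithelial telocyte list of 6 genes. The telocyte list summed to 291, 389 and 439 CPM in knockout replicates 1 to 3 and 413, 342 and 242 CPM in wild-type replicates 1 to 3. The 10 endothelial genes summed to 248, 310.3 and 336 CPM in knockout replicates 1 to 3 and 218, 238 and 276 CPM in wild-type replicates 1 to 3, and the groups overlapped. The epithelial list of 10 genes summed to 8598, 8212 and 8516 CPM in knockout replicates 1 to 3 and 7171, 7820.1 and 8183 CPM in wild-type replicates 1 to 3, and the B and plasma cell list of 6 to 877, 1530.2 and 3028 CPM in knockout replicates 1 to 3 and 191, 533 and 594 CPM in wild-type replicates 1 to 3, both without overlap. The epithelial groups were apart by a small distance, 8212 CPM in knockout replicate 2 against 8183 CPM in wild-type replicate 3. Of the 6 B and plasma cell genes, 2 had groups that did not overlap. Only 2 of the 10 epithelial genes had such groups, beside 17.9% of all tested genes. They were Krt19 and Lgals4, with log2 fold changes of 0.21 and 0.60. Epcam, Cdh1 and Krt18 had -0.048, -0.025 and -0.26. The rest of the epithelial list was positive, with a median of 0.13 over all 10. The macrophage list ranged from 356 to 491 CPM in the knockout and from 343 to 370.5 CPM in the wild type, and it overlapped, as did the neutrophil list, at 80.8 to 191 and 78.2 to 202 CPM. The T cell, enteric neuron and glia, and mesothelium lists each summed to at most 23.0 CPM in any library and overlapped as well. No gene found in the files from these lists was at 0 in every library. The part of cell composition in the differences of pathway genes was not tested, and in bulk tissue fewer cells of a type and less RNA per cell cannot be told apart.

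**Figure D4:**
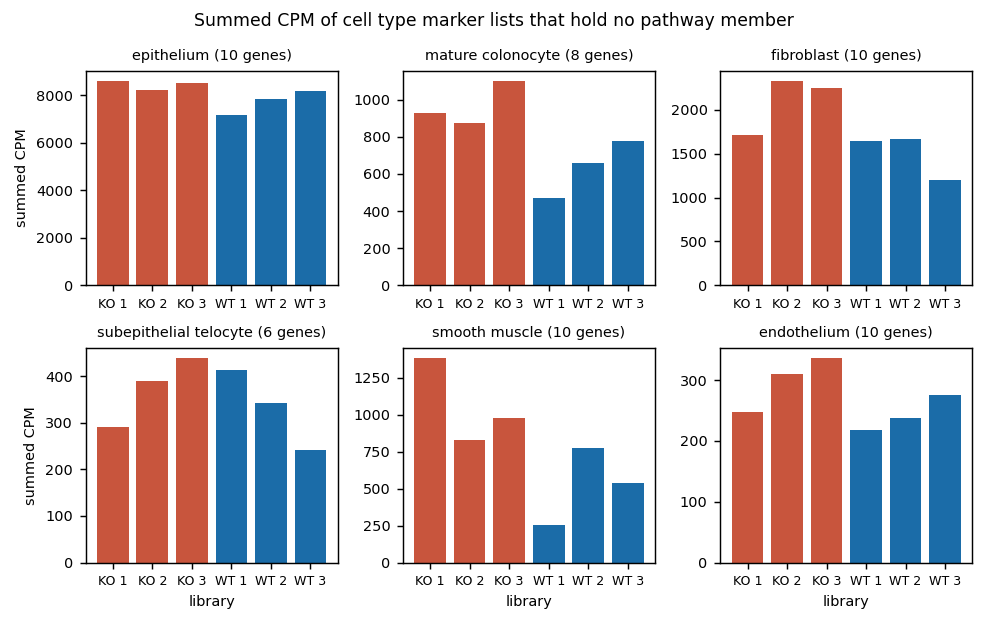
Summed CPM of 6 cell type marker lists in each library, knockout (KO) in red and wild type (WT) in blue; bars start at 0 and each panel has its own scale. The smooth muscle, fibroblast and mature colonocyte sums are higher in each knockout library than in any wild-type library, and wild-type replicate 1 has the lowest smooth muscle sum at 257 CPM.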

How the data were processed

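RNA of 6 colon tumour samples, 3 knockout and 3 wild type, was sequenced after ribosomal RNA removal with a GenSeq kit, per the labels' protocols. The authors deposited 1 table of raw counts (whole reads by gene symbol, 26214 features) per sample. The submitters' processing notes name the mm10 build, TopHat2, edgeR and limma, with no version or role. The sources used here do not give the counter, its handling of strand or its annotation. No member shared all its counts with another feature.

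Counts were analysed in R 4.3.3 with edgeR 4.0.16 (quasi-likelihood test, TMM scaling, filterByExpr, group as the only term, all 6 libraries), two-sided, with Benjamini-Hochberg adjustment over 16281 genes and a threshold of 0.05. Standard errors (SE) were taken from the F statistic, as the absolute log2 fold change over its root. DESeq2 1.42.0 and limma-voom (limma 3.58.1), fits with 3 further scalings or 2 further filters, a replicate block, and the omission of each library were alternatives, and the tests were checked on simulated counts. Members and lists were chosen with earlier results of these data known. Members described in full were, per role, the 3 with the smallest unadjusted p and the 2 with the highest mean CPM, with all Id and Ltbp genes. Bmp4 and Tgfbr3 were added after their values were seen. The other pathway genes named are the 6 with the smallest p, plus Eng and Ccn2; 1 further gene of that rule is not reported here. CPM values were computed here from the deposited counts. Counting error sets the precision of low genes. Positions and exon lengths are from GENCODE M21 (GRCm38) and match all 48 symbols.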

Additional observations from a re-analysis of the deposited data

How the results depend on the processing

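No member was called with edgeR under any of the 3 other scalings, 2 other filters, the replicate block or the omission of any library, nor with limma-voom. DESeq2 called 336 genes, 242 higher and 94 lower, among them 2 members, Bmp3 (log2 fold change 1.87, adjusted p = 0.000141) and Chrdl1 (1.56, adjusted p = 0.0444). The adjusted p of Bmp3 ranged from 0.000141 with DESeq2 up to 0.719 over its alternatives, and that of Chrdl1 from 0.0444 to 0.719. With each library left out, edgeR called between 0 and 1 genes; the 1 gene, without wild-type replicate 3, was Eif2s3y, named after its values were seen. The members' median log2 fold change lay between 0.020, without wild-type replicate 3, and 0.15, without knockout replicate 1. Members at an unadjusted p under 0.05 numbered 3 (6.25%) without knockout replicate 2 or knockout replicate 3, beside 7.22% and 6.58% of all genes, and 8 (16.7%) without knockout replicate 1, beside 10.9%, an alternative chosen after seeing the data. Bmp3 was among them with any library left out, and Chrdl1 in all omissions other than that of knockout replicate 1. Members whose groups did not overlap numbered between 11 and 18 with a library left out. The 11 (22.9%), without knockout replicate 3, stood beside 26.2% of all tested genes. The 18 (37.5%), without knockout replicate 1, stood beside 33%. Without wild-type replicate 1 there were 16 (33.3%), beside 25.4%. Over the 8 settings that keep all libraries, 277 of 279 values of genes named by rule kept direction and side of the threshold, and the other 2 are the DESeq2 calls. With a library left out, the log2 fold change of 10 of the 35 genes named by rule changed sign: Bmpr2 from -0.22 to 0.0063; Fstl1 from -0.00084 to 0.46; Id1 from -0.33 to 0.16; Id2 from -0.41 to 0.080; Id3 from -0.36 to 0.079; Inhba from -0.18 to 0.74; Ltbp2 from -0.10 to 1.15; Ltbp3 from -0.044 to 0.31; Ltbp4 from -0.014 to 0.29; Smad4 from -0.13 to 0.056; the cause was not tested. Bmp7, Inhbb, Tgfb1, Tgfb2, Bmpr1a, Acvr1, Acvr2a, Fst and Smad2, given more briefly, also changed sign, between -0.41 and 0.18, and 29 of the 48 members kept theirs. Deviations of same-numbered samples from their group means correlated at -0.177, -0.212 and -0.0851 across genes. For knockout and wild-type samples of different numbers the correlations lay between -0.124 and 0.288. With 3 libraries per group the deviations within a group constrain one another, so these values cannot decide whether the replicate numbers pair the samples. With the replicate block edgeR called 0 genes and 0 members, and the members' median was 0.11. Over all genes the median stayed between -0.021 and 0.00011 under every setting run. The total counts of the knockout libraries, lower than those of the wild type, limit genes such as Nog, with 9 to 13 reads in the knockout libraries.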

Other observations

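Skeletal muscle transcripts were present in 1 library. Myh4, a fast myosin heavy chain gene, measured 1417 CPM in wild-type replicate 3 and at most 4.803 CPM in the other 5 libraries, and Ckm, muscle creatine kinase, measured 256 CPM against at most 0.846. Of the pathway, Mstn, the TGF-beta superfamily ligand myostatin, had 405 reads in wild-type replicate 3, with 2 reads in knockout replicate 1 and 0 in the other 4 libraries. Hjv, a BMP co-receptor gene known from muscle and liver, measured 15.5 CPM there from 419 reads, with 2 reads in wild-type replicate 1 and 0 in the other 4. The filter removed both genes. The 13 muscle genes took 0.342% of the counts of that library.

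The Y-linked gene Eif2s3y, chosen after its values were seen, divided the wild type. It measured 59.9, 64.2 and 66.5 CPM in knockout replicates 1 to 3 and 7.94, 5.65 and 55.9 CPM in wild-type replicates 1 to 3. The Y-linked genes Ddx3y, Kdm5d and Uty did not divide that way, with Ddx3y at 91.7, 114 and 129 CPM in the knockout libraries and 111, 111 and 92.6 CPM in the wild-type libraries. All 6 libraries thus held Y-linked transcripts, and wild-type replicates 1 and 2 were apart from the other 4 libraries in Eif2s3y.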
